A study of Sus scrofa with 35 samples.

Results

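Troponin and the light chains of myosin are small proteins of the muscle sarcomere that exist in slow and fast forms. Troponin sits on the thin filament and has a tropomyosin-binding subunit (T), an inhibitory subunit (I) and a calcium-binding subunit (C). Calcium released into the fibre binds troponin C, which lifts the inhibition by troponin I and lets myosin bind actin. Each myosin head carries an essential and a regulatory light chain. Slow twitch fibres use the products of TNNT1, TNNI1, TNNC1, MYL3 (essential) and MYL2 (regulatory), and fast twitch fibres those of TNNT3, TNNI2, TNNC2, MYL1 (essential) and MYLPF (regulatory). TNNC1, MYL2 and MYL3 are also the forms of heart muscle. Longissimus dorsi of the pig is a back muscle made mostly of fast fibres.

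The genes were chosen by name, as the slow and the fast form of each subunit, from the gene column of the array files. Of 10 listed genes, 9 had at least 1 probe, and MYL3 had none under that name. The 9 genes had 47 probes of 60 bases, 12 slow and 35 fast, out of 41517 probes kept for testing, in which 9379 genes carried a symbol. TNNT1 had 5 probes, TNNI1 4, TNNC1 2 and MYL2 1. MYL1 had 16, TNNC2 6, TNNT3 5, MYLPF 5 and TNNI2 3. All 47 were well above background on all 35 arrays, so no filter removed any of them. Each gene is represented below by its brightest probe, its reference probe, and the other probes are counted.

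The series held longissimus dorsi RNA of castrated male growing pigs of Creole, Large White and their F1 cross, each pig on its own one-colour array. Groups were Creole TN (n = 6), Creole HS (n = 6), F1 TN (n = 6), F1 HS (n = 5), Large White TN (n = 6) and Large White HS (n = 6), that is 18 thermoneutral (TN, 24 °C) and 17 heat stress (HS) pigs, and their ages are not in the labels. The HS temperature is 30 °C in the sample labels but 32 °C, held for up to 5 days, in the growth protocol and the study's methods. All TN pigs were slaughtered before the temperature rise and all HS pigs after it, so temperature cannot be told apart from slaughter day and the few days of age between them, and littermates and pens are shared within a breed without being marked in the labels. Values are log2 of quantile-normalised intensity, a scale on which 1 unit is a doubling of brightness, and the brightest probe of the array averaged 19.39. The 75th percentile of raw intensity ran from 425.5 to 785 over the arrays, 58.4% to 75.9% of probes per array were well above background, and no spot was saturated. Skeletal muscle markers were at the top of the scale in both TN (mean of the list 18.42 to 18.65 per array) and HS (18.19 to 18.57), with 4 of 5 listed markers measured. Bright probes do not give gene abundance, and levels of different probes are not ranked below. In whole muscle, fewer fibres of a type and less RNA per fibre cannot be told apart.

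The probe sequences as deposited show how far slow and fast forms, and probes of a single gene, were told apart by the array. The first set holds the reference probe of TNNI2 and the other 2 TNNI2 probes, the only gene whose probes all passed the test in HS against TN. Capitals mark the 50 bases that the first and second share, and the third shares no marked run with them.
TNNI2 A_72_P303159: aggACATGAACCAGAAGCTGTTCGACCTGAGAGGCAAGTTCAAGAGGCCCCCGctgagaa
TNNI2 A_72_P585911: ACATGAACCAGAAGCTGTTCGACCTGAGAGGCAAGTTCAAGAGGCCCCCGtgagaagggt
TNNI2 O11229: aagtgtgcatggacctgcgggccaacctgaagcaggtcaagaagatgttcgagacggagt

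The 5 TNNT3 probes are shown because they disagreed in the results. Capitals mark a run of 17 bases shared by the end of A_72_P574589 and the start of A_72_P535015. A_72_P015556 is the reference probe.
TNNT3 A_72_P015556: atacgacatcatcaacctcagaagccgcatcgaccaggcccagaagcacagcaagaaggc
TNNT3 O12914: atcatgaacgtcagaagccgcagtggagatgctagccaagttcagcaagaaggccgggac
TNNT3 A_72_P535015: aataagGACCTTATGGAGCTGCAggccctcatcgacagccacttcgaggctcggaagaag
TNNT3 A_72_P574589: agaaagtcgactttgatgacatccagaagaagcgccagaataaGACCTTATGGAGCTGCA
TNNT3 A_72_P538200: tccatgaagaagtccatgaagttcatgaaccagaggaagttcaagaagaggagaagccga

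The slow and fast troponin C probes came closest to each other among the slow and fast probe pairs. Capitals mark the bases that are identical when the reference probe of TNNC1 is laid on a TNNC2 probe without gaps, 39 of 45 (86.7%).
TNNC1 A_72_P406658: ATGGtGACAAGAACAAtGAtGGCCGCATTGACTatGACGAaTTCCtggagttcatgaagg
TNNC2 A_72_P165811: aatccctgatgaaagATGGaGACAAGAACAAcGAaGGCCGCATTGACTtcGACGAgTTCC
For comparison, the reference probes of TNNT1 and TNNT3 were identical at 39 of 58 bases (67.2%). How far a probe of a slow form also takes up the fast transcript was not tested.

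Of the 47 probes, 4 lay more than 5 log2 units below the brightest probe of the same gene or, for MYL2, of its older name. For 2 of them, in MYLPF and TNNC2, the deposited sequence contains the reverse complement of a run in another probe of the same gene, 38 and 16 bases long and capitalised here, so such a pair cannot both match the same strand.
MYLPF A_72_P035721: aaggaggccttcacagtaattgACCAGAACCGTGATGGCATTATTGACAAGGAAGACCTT
MYLPF A_72_P504419: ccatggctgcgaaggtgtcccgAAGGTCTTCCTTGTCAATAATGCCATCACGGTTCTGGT
TNNC2 A_72_P611718: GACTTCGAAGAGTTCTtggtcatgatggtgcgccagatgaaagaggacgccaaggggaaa
TNNC2 A_72_P070111: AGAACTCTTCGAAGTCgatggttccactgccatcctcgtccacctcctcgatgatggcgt
The dim MYLPF probe, A_72_P504419, lay 8.70 log2 units below the brightest MYLPF probe, and the dim TNNC2 probe, A_72_P070111, 9.06 below the brightest TNNC2 probe. The only probe named MYL2, A_72_P434159, matched the dim MYLPF probe at 29 of 40 bases (72.5%, capitals), and a dim TNNI1 probe, 6.20 below the brightest of its gene, had no such match.
MYL2 A_72_P434159: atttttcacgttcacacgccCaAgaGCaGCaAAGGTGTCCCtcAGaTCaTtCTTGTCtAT
The 12 slow probes held 10 distinct sequences, because the reference probe of TNNT1 and its probe O10146 were identical, as were the reference probe of TNNI1 and its probe A_72_P077691. Counts of slow probes are therefore not counts of independent measurements.
A further 2 probes carried MLC2V, an older name of MYL2, and the brighter of them stood 8.26 log2 units above the probe named MYL2. These probes lie outside the rule of choice and were added after the values were seen. The brighter is called MLC2V below and is shown with the reference probe of TNNT1, the slow members that moved together.
MYL2 (MLC2V) A_72_P088476: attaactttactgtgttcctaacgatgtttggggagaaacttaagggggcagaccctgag
TNNT1 A_72_P232362: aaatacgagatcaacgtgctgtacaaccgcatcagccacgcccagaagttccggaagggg

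Heat stress was compared with thermoneutrality over all breeds to ask whether the slow and the fast forms shifted against each other. Fast troponin I (TNNI2) was the single gene of 9 whose reference probe changed, and it was lower in HS. All 3 TNNI2 probes and 3 of 5 probes of fast troponin T (TNNT3) passed the test, each lower in HS. No slow probe passed the test, and neither did any probe of TNNC2, MYL1 or MYLPF. In all, 6 of 47 probes (12.8%) passed limma's test at an adjusted p below 0.05, against 16% of all probes tested, so the share of members called was below the background. All 6 were lower in HS. Of all probes tested, 8.3% were called and lower and 7.73% were called and higher.

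TNNI2 encodes the inhibitory subunit of fast fibres. Its reference probe ran from 18.58 to 18.86 in TN (median 18.69) and from 18.24 to 18.82 in HS (median 18.61). By group, it averaged 18.72 ± 0.07 (SD, n = 6) in Creole TN and 18.47 ± 0.18 (n = 6) in Creole HS, 18.66 ± 0.04 (n = 6) in F1 TN and 18.53 ± 0.10 (n = 5) in F1 HS, and 18.72 ± 0.08 (n = 6) in Large White TN and 18.66 ± 0.20 (n = 6) in Large White HS. Every Creole HS pig was below every Creole TN pig, whereas the HS and TN ranges overlapped in F1 and Large White. The change over all breeds was −0.15 on the log2 scale (SE 0.05, limma adjusted p = 0.026), a level in HS of 0.900 times that in TN, and 14 of 17 HS pigs lay below the TN mean of their breed. The probe A_72_P585911, which shares 50 bases with it, changed by −0.17 (adjusted p = 0.032).

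The probe O11229, with another stretch of TNNI2, ran from 17.35 to 17.97 in TN (median 17.57) and from 16.66 to 17.61 in HS (median 17.28). It fell by 0.30 on the log2 scale in HS (SE 0.07, limma adjusted p = 0.0058), the largest change among the TNNI2 probes. The 3 TNNI2 probes ranked the pigs alike, with correlations of 0.90 to 0.93 over the 35 arrays.

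TNNT3 encodes the tropomyosin-binding subunit of fast fibres, and its transcript is known to be spliced into many forms. Its reference probe A_72_P015556 ran from 18.06 to 19.00 in TN (median 18.63) and from 17.10 to 18.81 in HS (median 18.43). The change was −0.23 (SE 0.10, limma adjusted p = 0.12), and 13 of 17 HS pigs were below the TN mean of their breed. Of its other probes, A_72_P574589 ran from 17.31 to 17.79 in TN (median 17.57) and from 16.72 to 17.67 in HS (median 17.19). It fell by 0.33 in HS (adjusted p = 0.00089), the smallest adjusted p of all 47 probes.

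The TNNT3 probe A_72_P535015, which overlaps A_72_P574589 by 17 bases, went from 17.63 to 18.14 in TN (median 17.87) to 17.06 to 18.00 in HS (median 17.57), a change of −0.27 (limma adjusted p = 0.0098). The dimmer probe A_72_P538200 went from 14.28 to 15.04 in TN (median 14.71) to 13.47 to 14.89 in HS (median 14.28), a change of −0.44 (adjusted p = 0.0034). The probe O12914 changed by −0.15 (adjusted p = 0.079). All 5 TNNT3 probes thus had a negative change, and the reference probe was one of the 2 that missed the threshold. The reference probe followed the other TNNT3 probes loosely (r from −0.01 to 0.51 over 35 arrays), while those 4 followed each other at 0.69 to 0.95.

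The other 3 fast members stood at the top of the scale and hardly varied. TNNC2, the calcium-binding subunit of fast fibres, ran from 19.18 to 19.31 in TN (median 19.26) and from 19.17 to 19.31 in HS (median 19.25), and its change was −0.03 (SE 0.02, limma adjusted p = 0.52). MYL1, the fast essential light chain, ran from 18.96 to 19.11 in TN and from 19.01 to 19.11 in HS, with medians of 19.06 and 19.07 (change 0.01, adjusted p = 0.79). MYLPF, the fast regulatory light chain, ran from 19.01 to 19.19 in TN and from 19.01 to 19.20 in HS, with medians of 19.14 and 19.16 (change 0.00, adjusted p = 1.00). Groups overlapped throughout in these genes, and the highest MYL1 value was the same in TN and HS pigs because quantile normalisation gives each rank a single value on all arrays. The 16 MYL1 probes changed by −0.10 to 0.04, the 6 TNNC2 probes by −0.15 to −0.03 and the 5 MYLPF probes by −0.15 to 0.03.

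Slow troponin T (TNNT1) ran from 17.28 to 18.51 in TN (median 17.77) and from 16.82 to 18.20 in HS (median 17.63). Its change was −0.18 (SE 0.11, limma adjusted p = 0.24), with 11 of 17 HS pigs below the TN mean of their breed, and all 5 TNNT1 probes lay between −0.32 and −0.18 (adjusted p from 0.107 to 0.241). Slow troponin I (TNNI1) ran from 15.79 to 17.35 in TN (median 16.37) and from 15.12 to 16.82 in HS (median 16.27). Its change was −0.14 (SE 0.13, limma adjusted p = 0.51). TN and HS pigs overlapped widely in both.

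Slow troponin C (TNNC1) ran from 17.54 to 18.52 in TN (median 18.29) and from 17.81 to 18.52 in HS (median 18.21). It changed by −0.02 (SE 0.08, limma adjusted p = 0.90). For the slow regulatory light chain, MLC2V ran from 17.04 to 18.24 in TN (median 17.83) and from 16.79 to 18.23 in HS (median 17.72), with a change of −0.03 (SE 0.11, limma adjusted p = 0.87). The dim probe named MYL2 ran from 9.01 to 9.89 in TN (median 9.62) and from 9.03 to 9.82 in HS (median 9.42), and changed by −0.16 (SE 0.08, limma adjusted p = 0.14). All 12 slow probes had a negative change, with a median of −0.17, and 5 had an unadjusted p below 0.05 in limma, where 30.7% of all probes did, but none passed after adjustment. The 5 TNNT1 probes correlated with each other at 0.96 to 0.99 over the arrays. The median was −0.02 for the 35 fast probes and also −0.02 for all probes tested.

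**Figure D1:**
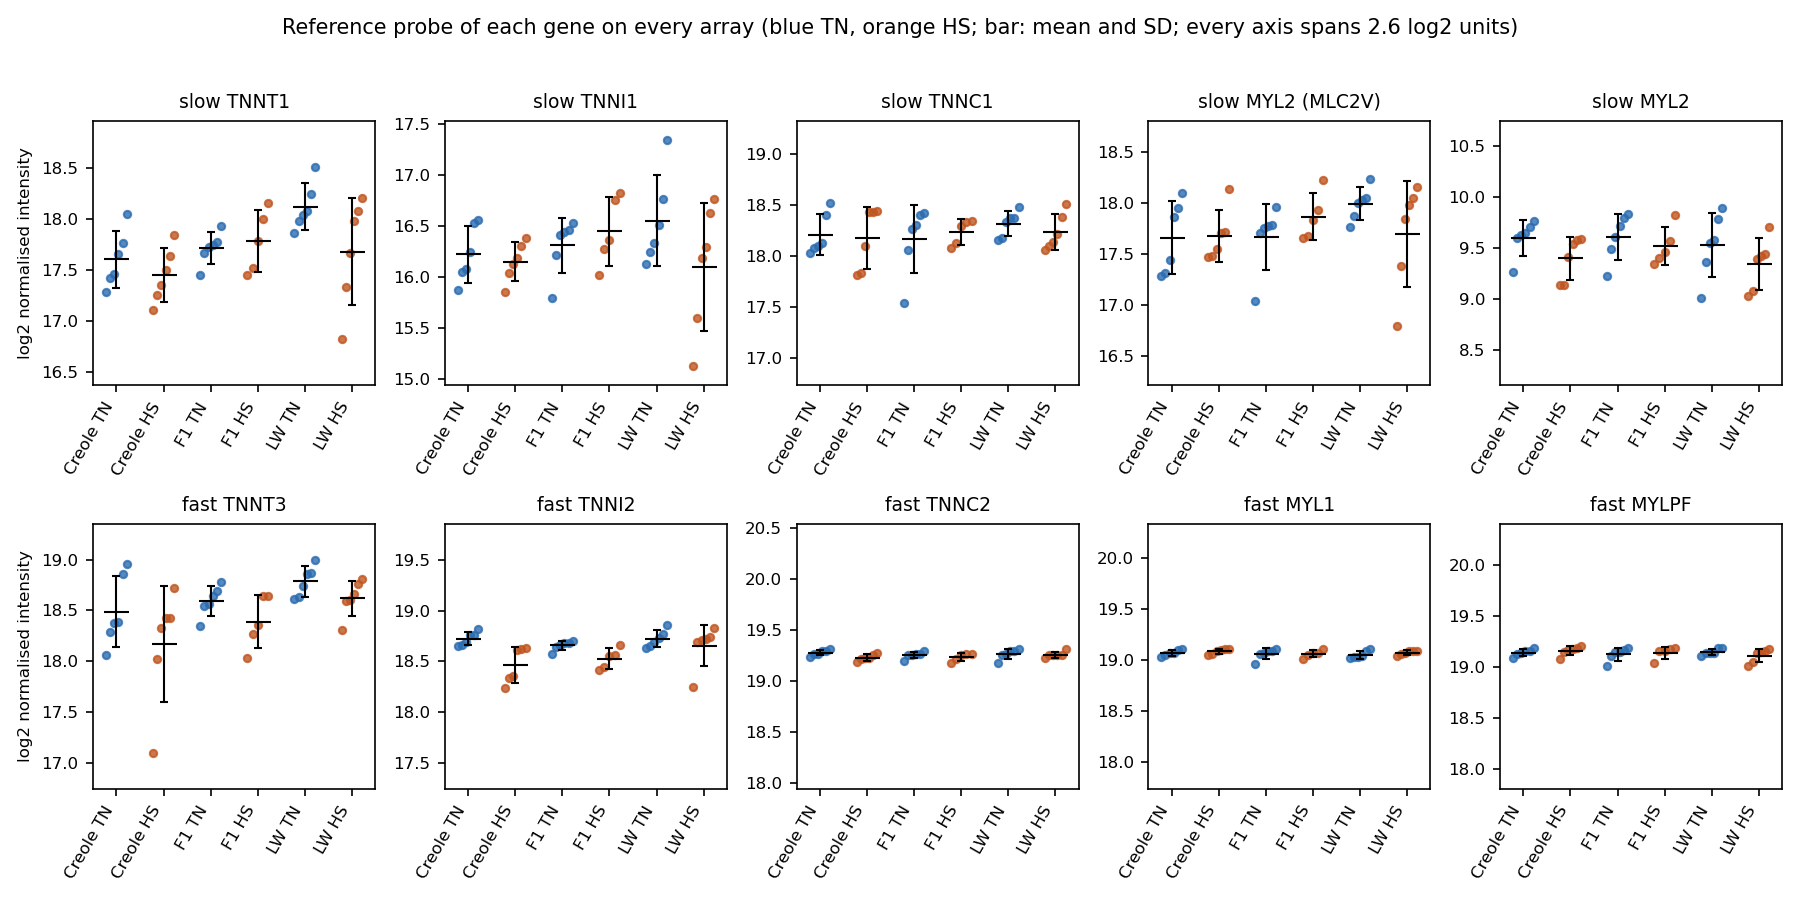
Log2 normalised intensity of the reference probe of each gene, and of MLC2V, for each of the 35 pigs by group (points), with group mean and SD; blue is TN and orange is HS, and every vertical axis spans the same number of log2 units. TNNI2 was lower in all Creole HS than in all Creole TN pigs (18.24 to 18.63 against 18.65 to 18.82), while TNNC2, MYL1 and MYLPF varied far less than the slow members.

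How far the fast members moved depended on how the arrays were scaled to each other. Quantile normalisation holds the bright end of the scale nearly fixed: among the 200 brightest probes the median HS minus TN change was −0.01, against −0.15 when arrays were scaled to their median, −0.23 when scaled to their 75th percentile and −0.07 when scaled to spike-in controls. The median over all probes was −0.02, 0.00, −0.06 and 0.07 in the same order. TNNI2 was lower in HS under all 4 scalings, by −0.15, −0.29, −0.38 and −0.22, and called in each. TNNT3 was also lower in all 4, by −0.23, −0.36, −0.44 and −0.28, and called under median and 75th percentile scaling only.

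TNNC2 changed by −0.03, −0.16, −0.25 and −0.08 under the quantile, median, 75th percentile and spike-in scalings, MYL1 by 0.01, −0.11, −0.21 and −0.04, and MYLPF by 0.00, −0.14, −0.23 and −0.07. MYL1 and MYLPF therefore turned from level or slightly positive to negative under the other 3 scalings. Their reference probes are themselves among the 200 brightest, as are those of TNNC2, TNNI2, TNNT3 and TNNC1. TNNC2 was called under median and 75th percentile scaling and MYLPF under the latter. Over all arrays the SD of TNNC2 was 0.04 with quantile normalisation against 0.14 to 0.27 with the others. Of the 47 probes, 12 were called with median scaling (16% of all probes), 21 with the 75th percentile (17.5%) and 6 with spike-ins (11.3%), all of them lower in HS. A level that is the same in HS and TN for these 3 genes therefore holds only relative to other bright probes.

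**Figure D2:**
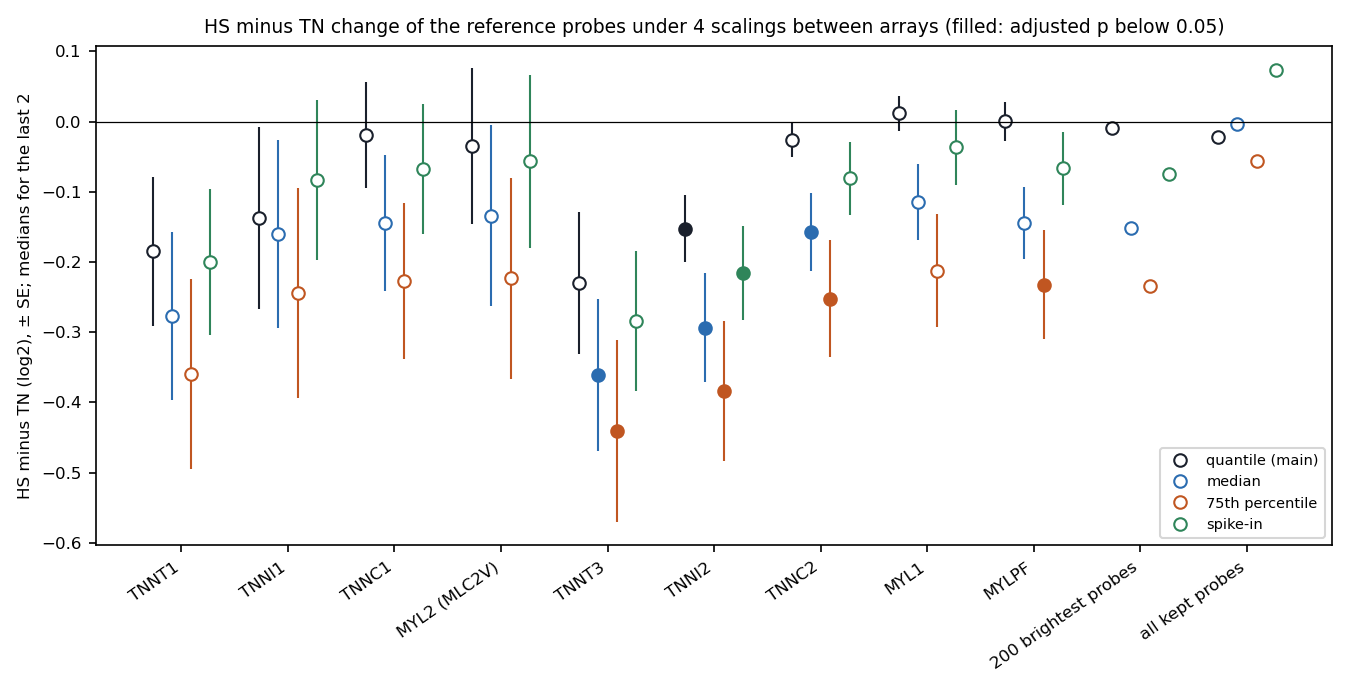
HS minus TN change on the log2 scale, with its SE, of each reference probe (MYL2 by MLC2V) under 4 scalings between arrays, beside the median change of the 200 brightest and of all kept probes; filled symbols had a limma adjusted p below 0.05. TNNI2 is filled and negative under all 4, and TNNC2, MYL1 and MYLPF, whose reference probes are among the 200 brightest, lie near the median of those probes under each. The reference probes of TNNI2, TNNT3 and TNNC1 are also among the 200 brightest.

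Some measures of the arrays moved with temperature beside these changes. The mean of 18 leukocyte markers ran from 8.13 to 10.96 in TN and from 9.79 to 11.32 in HS, with 9 of 18 higher and 0 lower in limma (median change 0.72). Of these 18, 1 was not well above background on every array. The mean of 16 connective tissue markers ran from 10.71 to 12.16 in TN and from 11.67 to 12.47 in HS, with 6 of 16 higher and 0 lower (median 0.32). The muscle marker mean, which includes the fast myosin MYH1, was 18.54 ± 0.06 in TN and 18.40 ± 0.11 in HS, and of its 4 genes PYGM was lower (−0.48, limma adjusted p = 0.00060). Raw array brightness (log2 of the 75th percentile) was 8.73 to 9.40 in TN and 8.88 to 9.62 in HS. The change of the TNNI2 reference probe was −0.10 with the leukocyte mean as a covariate (limma adjusted p = 0.27), and the count of member probes called was 0 with that covariate (4.47% of all probes), 1 with the connective tissue mean (2.44%) and 1 with brightness (5.04%). That 1 probe was in both cases TNNT3 A_72_P574589, at −0.26 (limma adjusted p = 0.0497) and −0.23 (adjusted p = 0.018). All 8 TNNI2 and TNNT3 probes stayed negative in each of these fits. These measures differ between HS and TN themselves, and their part in the changes was not tested further.

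Arrays lay on 5 slides that each held HS and TN pigs. Within slides the HS minus TN difference of TNNI2 was −0.27, 0.03, −0.24, −0.15 and −0.05, the last from 1 HS and 2 TN pigs, and with slide as a block the reference probe remained called (limma adjusted p = 0.022 as a fixed and 0.021 as a random term). TNNC1 was the member most tied to slide: 51.8% of the variance of its reference probe lay between slides, whose means went from 18.04 to 18.43, against 3.64% for the second TNNC1 probe, O8757.

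Within breeds, members passed the test in Creole, and no difference of the change between breeds was called. In Creole, 4 of 47 probes were called, all lower in HS, against 1.91% of all probes (0.874% lower). They were TNNI2 O11229 (−0.49, limma adjusted p = 0.034) and the TNNT3 probes A_72_P535015 (−0.47, 0.033), A_72_P574589 (−0.53, 0.021) and A_72_P538200 (−0.68, 0.034). No reference probe was called in Creole, where 1 of 9 had an unadjusted p below 0.05 in limma, against 21.5% of all probes. The reference probe of TNNI2 changed by −0.26 (SE 0.08, limma adjusted p = 0.072).

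In Creole the HS and TN pigs did not overlap for 4 probes, all lower in HS, namely TNNI2 A_72_P303159 and O11229 and TNNT3 A_72_P574589 and A_72_P538200, where 1.91% of all probes did not overlap (0.978% with HS lower). In F1, TNNT3 A_72_P574589 alone did not overlap, against 1.14% of all probes (0.359% with HS lower), and in Large White no member did, against 1.07%. No member was called in F1 or Large White, where 0.00482% of all probes, that is 2 probes, were called in each breed. An unadjusted p below 0.05 in limma was seen for 1 member probe in F1 (8.3% of all probes) and 9 in Large White (16.6%).

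In Large White all 12 slow probes had a negative change (median −0.45), and 8, some of them identical or near copies of each other in their values, had an unadjusted p below 0.05 without passing adjustment, where 16.6% of all probes had such a p. TNNT1 averaged 18.12 ± 0.23 in Large White TN and 17.68 ± 0.53 in Large White HS, a change of −0.44 (limma adjusted p = 0.20), and TNNI1 averaged 16.55 ± 0.45 and 16.10 ± 0.63, a change of −0.45 (adjusted p = 0.29). In F1 the corresponding changes were 0.07 for TNNT1 and 0.14 for TNNI1, neither called. Large White HS replicate 5 was the lowest of its group in TNNT1 (16.82), TNNI1 (15.12), MLC2V (16.79) and TNNI2 (18.25). Without it the Large White change was −0.27 for TNNT1, −0.26 for TNNI1 and −0.11 instead of −0.29 for MLC2V, and 0.01 instead of −0.07 for TNNI2. The interaction of breed and temperature, which tests whether the change differs between breeds, was called for no member and for 0% of all probes. Among members, 1 of 47 probes, TNNC1 O8757, had an unadjusted p below 0.05 in that test (0.046), where 3.84% of all probes did. Its changes were 0.06 in Creole, 0.31 in F1 and −0.39 in Large White.

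**Figure D3:**
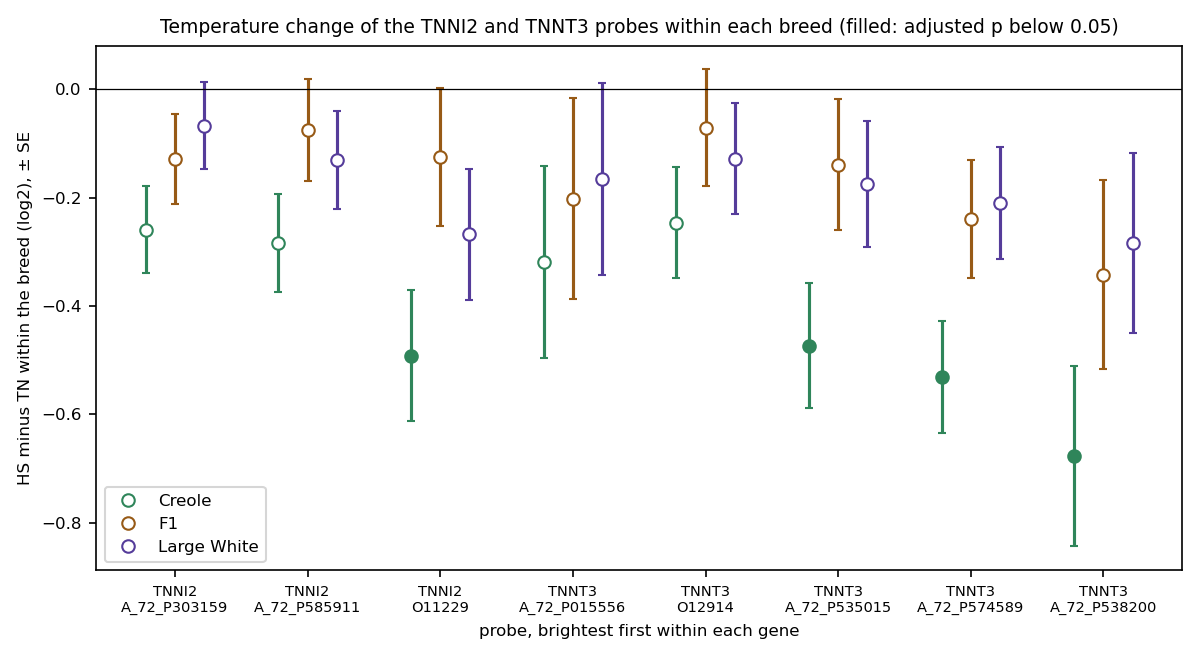
HS minus TN change on the log2 scale, with its SE, of the 8 TNNI2 and TNNT3 probes within each breed; filled symbols had a limma adjusted p below 0.05. The 4 filled symbols are all Creole, between −0.47 and −0.68.

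Breeds were compared over both temperatures to ask whether Creole, F1 and Large White pigs differ in these genes at all. No member probe was called between Creole and Large White, where 3.64% of all probes were, and 7 of 47 had an unadjusted p below 0.05 in limma, against 15.4% of all probes. TNNT1 was the closest among slow members: it ran 17.11 to 17.84 in Creole HS and 17.28 to 18.05 in Creole TN, against 16.82 to 18.20 and 17.86 to 18.51 in Large White. Its difference, Creole minus Large White, was −0.37 (SE 0.13, adjusted p = 0.104), with 11 of 12 Creole pigs below the Large White mean of their temperature, and its 5 probes lay between −0.49 and −0.37 (adjusted p from 0.076 to 0.112).

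Whether the TNNT1 breed difference was called depended on 1 pig, but its sign did not. Leaving out any 1 array gave −0.47 to −0.33 for the reference probe. Without Large White HS replicate 5, all 5 TNNT1 probes, which hold 4 distinct sequences, were called, at −0.62 to −0.47 (limma adjusted p from 0.0058 to 0.022), against 3.44% of all probes, and the reference probe differed by −0.47 (adjusted p = 0.011). Without that pig, 6 member probes were called in HS against TN (13.2% of all probes) and 7 instead of 4 in Creole, where the share of all probes rose from 1.91% to 3.32%. The TNNI2 reference probe (limma adjusted p = 0.032) was among the 7.

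For fast troponin T, the reference probe TNNT3 A_72_P015556 had a Creole minus Large White difference of −0.37 (SE 0.12, limma adjusted p = 0.084, 9 of 12 Creole pigs lower), and the other 4 TNNT3 probes had differences of −0.12 to −0.01. With any 1 array left out, the reference probe differed by −0.42 to −0.27 (limma adjusted p from 0.040 to 0.15). The reference probe was called, at −0.42, only when Creole HS replicate 2 (adjusted p = 0.043) or Creole TN replicate 2 (adjusted p = 0.040) was left out. F1 pigs differed from Large White (0.525% of all probes called) and from Creole (0.477%) in no member. In each, 1 member probe had an unadjusted p below 0.05 in limma, against 10.5% and 8.88% of all probes.

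Slow and fast members were also set against each other on every array. Mean slow minus mean fast level, by reference probe, was −3.46 ± 0.22 (SD, n = 18) in TN and −3.51 ± 0.24 (n = 17) in HS, where the size of the gap reflects probe brightness and only the shift between groups is read. By breed it went from −3.53 in TN to −3.53 in HS in Creole, from −3.49 to −3.37 in F1 and from −3.36 to −3.61 in Large White, with group SDs of 0.16 to 0.31. With MLC2V in place of the dim MYL2 probe, it was −1.41 ± 0.27 in TN and −1.43 ± 0.29 in HS, and went from −1.52 to −1.46 in Creole, from −1.47 to −1.29 in F1 and from −1.25 to −1.51 in Large White. F1 and Large White thus had opposite signs, a difference that was not tested. Each breed held 1 far pig, F1 TN replicate 2 (−3.94 by reference probe) and Large White HS replicate 5 (−4.13). Group medians by reference probe went from −3.44 to −3.39 in F1 and from −3.37 to −3.54 in Large White, less than the means. Subunit by subunit, the slow minus fast difference shifted from TN to HS by 0.05 for troponin T (TNNT1 and TNNT3), 0.02 for troponin I (TNNI1 and TNNI2), 0.01 for troponin C (TNNC1 and TNNC2) and −0.03 for the regulatory light chains (MLC2V and MYLPF), all well inside the SD between pigs (0.22 to 0.44). The slow and the fast form of troponin T had changes of the same sign, as had those of troponin I.

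The slow members varied together from pig to pig. Over 10 pairs among TNNT1, TNNI1, MLC2V and the 2 TNNC1 probes, TNNT1 and TNNI1 had r = 0.89 and rho = 0.86 over 35 arrays, each with a permutation p of 1e-05, the smallest that 100000 permutations can give (1.7e-05 after Benjamini-Hochberg adjustment). After removing group means r was 0.93, and without the 2 arrays farthest from the TNNT1 median it was 0.84. TNNT1 and MLC2V had r = 0.85 and rho = 0.88 (0.87 within groups, 0.84 without the 2 farthest), and TNNT1 and TNNC1 O8757 had r = 0.83 and rho = 0.82 (0.87 and 0.78), with the same permutation p. MLC2V entered these pairs in place of the probe named MYL2 after the values were seen. The permutations treated the 35 pigs as independent, although littermates and pens are shared. They were not set against pairs of genes outside the members.

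The reference probe of TNNC1, the probe close to TNNC2 in sequence and tied to slide, followed the others less. With TNNT1 it had r = 0.37 (permutation p = 0.03, adjusted 0.034) and rho = 0.34 (permutation p = 0.048, adjusted 0.053), and within slides r was 0.66. With TNNI1 it had r = 0.27 (permutation p = 0.11), and rho = 0.20 (permutation p = 0.25). With the second probe of its own gene r was 0.49 (permutation p = 0.0036) and rho 0.47 (permutation p = 0.0055).

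Among fast members no such common movement was seen with quantile normalisation, where the pairwise r within groups ran from −0.45 to 0.19, against 0.24 to 0.93 among the slow ones. With 75th percentile scaling the same fast pairs had r of 0.70 to 0.98 and the slow pairs 0.59 to 0.97, while slow with fast pairs went from between −0.28 and 0.58 to between 0.23 and 0.72. These values are descriptions, since all genes of an array share its scaling, and the cause of the difference between scalings was not tested.

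**Figure D4:**
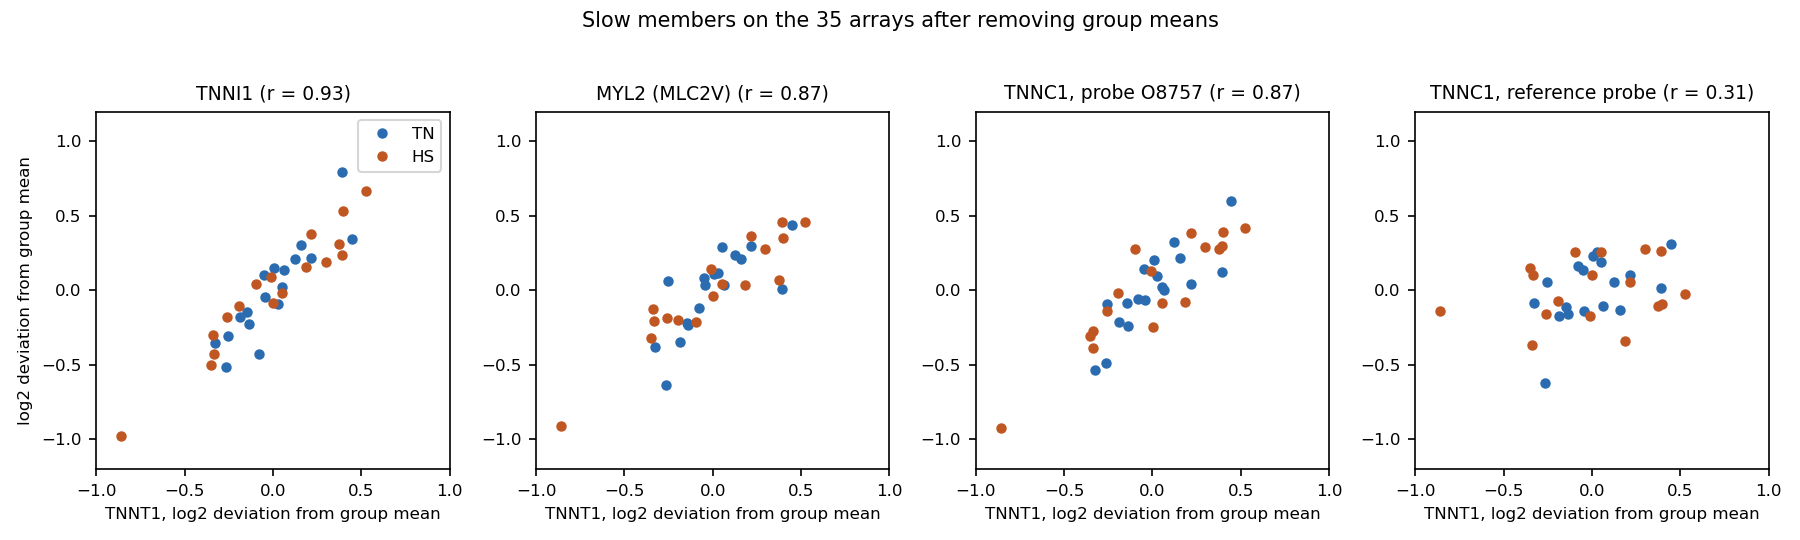
Deviation from the group mean, in log2 units, of TNNI1, MLC2V and both TNNC1 probes against that of TNNT1 for the 35 pigs (blue TN, orange HS), with Pearson r within groups. TNNI1 (0.93), MLC2V (0.87) and TNNC1 O8757 (0.87) follow TNNT1, and the TNNC1 reference probe follows it less (0.31).

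The genes most like the slow members, by Pearson r with the mean of the standardised slow reference probes over 35 arrays, out of 9370 genes that are no member, were ATP2A2 (0.87), PLN (0.86), TRNP1 (0.86), TMPRSS11D (0.85) and IER5 (0.82). ATP2A2 encodes the calcium pump of slow fibres and PLN its inhibitor phospholamban. After removing group means the same 5 genes led (0.82 to 0.87). With MLC2V in place of the dim MYL2 probe the list became MYH7 (0.90), the slow myosin heavy chain, ATP2A2 (0.89), PLN (0.86), MYOZ2 (0.86) and MYL6B (0.85). The genes most like the fast members were VDAC1 (0.80), PFKM (0.76), PGK1 (0.76), ATPIF1 (0.73) and UQCR11 (0.73); these rest on the quantile scale, on which the fast members were weakly correlated. Within groups VDAC1 (0.75) was joined by DNAJC19, NDUFA1, TMEM38A and UQCR10 (0.72 to 0.74).

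Other genes listed under the slow fibre programme were counted in HS against TN by their reference probes. Of 11 measured, CASQ2, the calcium store protein of slow and heart muscle, was higher (0.86, limma adjusted p = 0.0041). TPM3, slow tropomyosin (−0.29, limma adjusted p = 0.031), and MYBPH (−0.52, adjusted p = 0.00076) were lower, with a list median of −0.07. Whether MYBPH belongs with the slow fibre genes was not tested. Only 1 of the 8 kept TPM3 probes was called. MYH7 was at 18.69 ± 0.21 in TN and 18.67 ± 0.17 in HS (change −0.02, adjusted p = 0.86), and ATP2A2 changed by −0.17 (adjusted p = 0.30).

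Of 11 other fast fibre genes measured, 4 were lower in HS and 0 higher, with a median of −0.20. They were MYH2, a fast oxidative myosin heavy chain (−0.21, limma adjusted p = 0.014, 1 of 6 kept probes called), ATP2A1, the calcium pump of fast fibres (−0.46, adjusted p = 0.0035), MYBPC2, fast myosin-binding protein C (−0.50, adjusted p = 0.014), and MYOZ3 (−0.25, adjusted p = 0.0074). The reference probes of the fast myosin heavy chains MYH4 and MYH1 were not called, but 6 of 9 kept MYH4 probes and 3 of 8 kept MYH1 probes were, all lower in HS. Of 18 other sarcomere genes, DES, which encodes desmin, was higher (0.24, adjusted p = 0.0031, 1 of 4 kept probes called), and TTN (−0.37), MYOM2 (−0.48) and TMOD4 (−0.21) were lower (adjusted p from 0.012 to 0.017), with a median of −0.16. These lists were chosen with earlier results known, so their counts describe them and set them against the 7.73% of all probes that were higher and the 8.3% that were lower.

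Between Creole and Large White, TPM3 was lower in Creole (−0.55, limma adjusted p = 0.0032) and MYBPH higher (0.47, adjusted p = 0.019), and none of the other fast fibre or sarcomere genes was called. TPM3 thus had the sign of TNNT1, with which it shares the thin filament of slow fibres, in both comparisons. TNNT1 itself was called in neither. The slow list had medians of −0.07 in HS against TN and −0.27 between Creole and Large White. CASQ2 had the other sign in both comparisons, and MYBPH had it between the breeds.

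Of 9 genes listed as paralogs of developing or heart muscle, 6 were measured. Whether MYL9 belongs with such paralogs was not tested. Cardiac troponin T, TNNT2, a form that fetal skeletal muscle also uses, averaged 11.11 ± 1.53 in TN and 12.48 in HS and was higher by 1.38 (SE 0.46, limma adjusted p = 0.037). MYH3, the embryonic myosin heavy chain, averaged 13.16 ± 1.74 in TN and 14.94 in HS and was higher by 1.80 (SE 0.51, limma adjusted p = 0.014). Each had 1 kept probe, and the SD between TN pigs was about as large as the change. The reference probes of the other 4, cardiac troponin I (TNNI3), MYL7, MYL9 and ACTC1, changed by −0.17 to −0.08 with none called. Of the 3 kept ACTC1 probes, however, 1 was called, and it was higher in HS.

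Of 20 measured regulators of fibre type, 4 were lower in HS and 1 higher, with a median of −0.09. SOX6, which represses slow genes in fast fibres, was lower (−0.40, limma adjusted p = 0.016), as were TBX15 (−0.40, adjusted p = 0.0093), PPP3CB, a catalytic subunit of calcineurin (−0.29, adjusted p = 0.014), and ESRRA (−0.25, adjusted p = 0.026). MYOG, myogenin, was higher (0.31, adjusted p = 0.012). PPARD alone was called between Creole and Large White (0.48, adjusted p = 0.015).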

How the data were processed

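The authors hybridised Cy3-labelled longissimus dorsi cRNA to one-colour porcine 60-mer arrays, 1 pig per array, scanned and quantified with Agilent Feature Extraction 10.10.1.1, per the labels. The deposited scanner files hold raw intensity per spot. The authors also deposited a table of log2 processed values of the same arrays, which was used as an alternative and correlated with the values computed here with a lowest r of 0.999978 over the arrays. Here the median spot intensity was quantile-normalised without background subtraction and log2-transformed (R 4.3.3, limma 3.58.1), and a probe was kept (41517 of 60305) where 75% or more of the arrays in any group had it well above background. Spots flagged as outliers were left out. limma fitted breed and temperature additively, or 1 mean per group for within-breed changes and the interaction (moderated F). Benjamini-Hochberg adjustment ran over all kept probes with a threshold of 0.05. The random terms of the study's model (pen, slaughter day, parents) could not be fitted, since the labels do not give them. Precision is limited by the number of arrays, and the tests set differences against the spread between pigs within groups. They treat all pigs as independent, although littermates, pens and slaughter days are shared, so the p-values may be too small.

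Members, gene lists and tests were chosen with earlier results of these data known. For each gene the reference probe is the kept probe with the highest mean. Genes of every other list are named when called and among the 4 with the smallest p in a comparison. These comparisons were HS against TN and Creole against Large White. MYH7, ATP2A2, MYH4, MYH1 and the uncalled paralogs are named besides, chosen after their values were seen. The likeness rule names the 5 genes with the highest r. Adipocyte, blood cell, endothelial and nerve marker lists were also counted. Probes have no coordinates here, because the labels name no genome build. Alternatives covered scaling, normexp background, filters, covariates, slide, array weights, the probe taken per gene and leaving out each array. Probe-level counts under other scalings and covariates, MLC2V and the values without Large White HS replicate 5 were added after seeing the data. The fits were also run on simulated arrays with independent noise per probe, in which 200 probes were changed by a full log2 unit. Of these, 198 were recovered, with 12 false calls. Changes as small as those of the members, and shared litters, pens or slides, were not simulated.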

Additional observations from a re-analysis of the deposited data

Results flagged for a closer look

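Among 66 combinations of a gene and a group that were examined, 7 had a pig far from the others of its group, where chance alone gives about 3.3. Each value below is the gap to the nearest pig divided by the range of the group. TNNI2 in Large White HS replicate 5 was the lowest of its group, at 18.25 against 18.69 for the next pig (0.772). That pig was also the lowest of its group in TNNT1, TNNI1 and MLC2V, as described above. F1 TN replicate 2 was the lowest in MLC2V, at 17.04 against 17.71 (0.718), and in the slow minus fast mean, at −3.94 against −3.47 (0.731).

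The other 4 concern narrow ranges or the dim MYL2 probe. MYL2 in Creole TN replicate 2 was the lowest at 9.26 against 9.59 (0.658). TNNC2 in Large White HS replicate 2 was the highest at 19.31 against 19.25 (0.675), MYL1 in F1 TN replicate 1 the lowest at 18.96 against 19.05 (0.647), and MYLPF in F1 HS replicate 3 the lowest at 19.04 against 19.16 (0.826).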

How the results depend on the processing

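TNNI2 was lower in HS under all 19 other settings, by 0.10 to 0.38 on the log2 scale, and called except with array brightness, the leukocyte mean or the connective tissue mean as covariate. The number of genes of 9 called in HS against TN was 1 in the values reported, where 6654 of 41517 probes were called. Brackets give the probes called in each other fit. The number was 4 with 75th percentile scaling (7286), 3 with median scaling (6653) and 2 with array weights (9560). It was 2 with the mean of all kept probes of a gene (6647), with that mean without dim probes (6647) and with the dimmest probe (6654). It was 0 with the brightness (2092), leukocyte (1856) and connective tissue (1015) covariates. The calls of the whole fit thus moved with the setting as well. For Creole against Large White it was 1 instead of 0 with array weights (TNNT1, 1864 probes called) and with the brightness covariate (TNNT3, 1798), against 1513 probes in the values reported. For HS against TN in Creole, with 792 probes called in the values reported, it was 2 instead of 0 in 3 settings. These were the mean of all kept probes (789), that mean without dim probes (789) and the dimmest probe (792). Leaving out 1 array at a time gave 1 to 1 gene in HS against TN, 0 to 1 in Creole against Large White and 0 to 1 in HS against TN in Creole. The causes were not tested.

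Small changes that turned sign were the following. In HS against TN, MYL1 was −0.21 with the 75th percentile, −0.11 with median and −0.037 with spike-in scaling and −0.10 with the dimmest probe. MYLPF was −0.23, −0.14 and −0.067 with those scalings, −0.0038 with normexp, −0.012 with brightness, −0.016 with the leukocyte and −0.0033 with the connective tissue covariate, −0.025 with the mean of all probes and −0.024 with the dimmest. With brightness TNNI1 was 0.024 and TNNC1 0.0069, TNNC1 was 0.11 with the leukocyte and 0.028 with the connective tissue covariate, and MYL2 was 0.016 with the leukocyte covariate. Leaving out 1 array gave −0.0071 to 0.0078 for MYLPF and −0.058 to 0.0050 for TNNC1.

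In Creole against Large White, TNNC2 was 0.046 with the 75th percentile, 0.032 with the mean of all probes, 0.0048 without dim probes, 0.018 with the dimmest and 0.011 in TN pigs only. MYL2 was −0.00665 with spike-ins, −0.0093 with the leukocyte and −0.032 with the connective tissue covariate, −0.18 by MLC2V, −0.20 without dim probes and −0.23 with the dimmest. MYL1 was −0.013 and MYLPF −0.0039 with spike-ins, MYLPF −0.0058 and TNNI2 0.00090 in TN pigs only, and TNNI1 0.051 in HS pigs only. No paired analysis was possible because replicate numbers follow accession order and the labels mark no litter or pen.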

Other observations

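Markers of other cell types in these muscles were counted beside the members. In HS against TN, 0 of 8 measured adipocyte markers were called, 2 of 4 blood cell markers were lower, 1 of 8 endothelial markers was lower and 2 of 9 nerve markers were higher, by limma. Between Creole and Large White, 2 of 18 leukocyte, 4 of 16 connective tissue and 3 of 8 endothelial markers were lower in Creole, and none of the adipocyte, blood cell or nerve markers was called. Over 35 arrays the TNNI2 reference probe had an r of −0.44 with the mean of the leukocyte markers (−0.29 within groups) and of 0.79 with that of the muscle markers (0.69 within groups), given as descriptions of values that share their scaling. Among the muscle markers PYGM varied most (SD 0.23 in TN and 0.32 in HS), then MYH1 (0.09 and 0.14). CKM and ACTA1 hardly varied (0.01 to 0.03), so this r does not describe muscle content in general.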
